A study of Mus musculus with 6 samples.

Results

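The choroid plexus genes Ttr, Clic6, Tmem72 and Kcne2 were followed through 6 RNA sequencing libraries of mouse hippocampus, to describe how much choroid plexus transcript each library carried. The members were chosen by gene symbol, and all 4 were found among the 3733 genes of the deposited table. They were proposed with their levels in these same libraries known, so their levels and their differences between groups are given as a description, without a test. There were 3 groups of 2 libraries, named Control, PIA and PIA+IL-27, where PIA abbreviates the title's postnatal immune activation. The design text calls it LPS, for bacterial lipopolysaccharide, a trigger of innate immunity, and the last group received it together with rIL-27, IL-27 being a cytokine of myeloid cells. The sources used here do not give strain, age, sex, dose or timing. They also do not state whether both libraries of a group came from separate animals, so p-values rest only on the spread between these samples. In edgeR that spread was pooled over genes, and a gene's own spread had no weight.

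The choroid plexus is a vascular fold that hangs into the brain ventricles and is covered by an epithelium that secretes cerebrospinal fluid. It is not part of the hippocampus, but in the lateral ventricle it is attached along the edge of the hippocampus, so tissue dissected there can carry some of it. Transthyretin, the product of Ttr, carries thyroxine and retinol-binding protein and is the best known secreted protein of this epithelium. Kcne2 encodes a small accessory subunit of voltage-gated potassium channels, Clic6 a member of the chloride intracellular channel family, and Tmem72 a membrane protein. In bulk tissue, fewer cells of a type and less RNA per cell cannot be told apart.

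The depth of the 6 libraries was alike, with an estimated 14361364 to 15460411 reads each. Every gene of the table passed, in some comparison of the authors, a Q value of 0.05 and a log2 fold change of 1 in size, so the table is a selection made on these libraries. Markers of the hippocampus itself differed between libraries. Prox1, which marks granule neurons of the dentate gyrus, had 96.0 and 172 normalized counts in PIA 2 and PIA+IL-27 1 and 590 to 1358 in the other 4, and the neocortical gene Cux2 had 2400 and 2370 in these libraries and 577 to 746 in the others. Of 6 neocortical genes, 5 were highest in PIA+IL-27 1 and 1 in PIA 2, where 40.7% and 11.8% of all genes of the table were. The dentate genes did not all follow Prox1: Stxbp6 was highest in PIA+IL-27 1, with 709 against 118 to 424 elsewhere, and the summed dentate level there, 26.7 TPM, was above those of Control 1 (16.9) and PIA 1 (21.2). The 4 Y-linked genes Ddx3y, Eif2s3y, Kdm5d and Uty together reached 541 to 1476 normalized counts in both PIA libraries and PIA+IL-27 1 but 2.94 to 9.52 in both Control libraries and PIA+IL-27 2, so sex and group cannot be told apart in PIA against Control. The part of these differences in the results below was not tested.

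Sequence upstream of a start site was at hand in RefSeq (build GRCm38.p6) for Kcne2 and Tmem72, 2 of the 4 members, and is shown because their transcripts were highest in the same libraries. Both stretches hold the run GATTAAAC, in capitals below, which contains GATTA, the other-strand reading of TAATC, the core of sites bound by homeodomain factors of the Otx type. The first line gives the 250 bases before the upstream start of Kcne2, chr16:92292139-92292388 on the plus strand. The second gives 30 bases upstream of the start of Tmem72 used here, chr6:116716793-116716822 on the minus strand. The RefSeq gene reaches to 116716982, so these bases lie within it. GENCODE also lists the stretch as leader of a longer transcript.
Kcne2: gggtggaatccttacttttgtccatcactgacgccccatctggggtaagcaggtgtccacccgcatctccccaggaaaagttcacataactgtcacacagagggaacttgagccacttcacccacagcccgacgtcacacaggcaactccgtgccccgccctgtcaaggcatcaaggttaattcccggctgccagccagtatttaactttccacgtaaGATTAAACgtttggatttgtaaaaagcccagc
Tmem72: cccaagataatGATTAAACtgagcagcact

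The run lies 32 to 25 bases before the start of Kcne2 and 53 to 46 bases before that of Tmem72, in the same orientation. It was picked because it is 1 of 3 runs of 8 letters, the longest that these 2 windows share on either strand. The others are GTTCCCTC and TACGTGGA. Of 32851 such windows of 250 bases over all genes, 0.396% hold GATTAAAC or its reverse complement, and of 49 windows of 35 other choroid plexus genes 0 hold it. TAATCC, searched on both strands, was in neither of these windows and in 6.25% of all, and TAATC, which it contains, was in 19.8% of all and 14.3% of those of the other choroid plexus genes. Such matches are a description of the letters only. In the RefSeq order of genes Kcne2 and Clic6 lie on the same chromosome with 5 coding genes between them, none of which is in the deposited table.

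Ttr varied more between libraries than any other gene of the table. Control 1 had 78.4 and Control 2 had 58611 normalized counts, PIA 1 had 11302 and PIA 2 had 141, and PIA+IL-27 1 had 6.26 and PIA+IL-27 2 had 649. A normalized count is the authors' read count divided by 1 factor per library. Each group thus held a library with high and a library with low Ttr, and the groups overlapped. In TPM, the share of all transcripts after correction for gene length, Ttr made up 1.39% of all transcripts in Control 2 and 0.234% in PIA 1, and only 0.000144% in PIA+IL-27 1. The ratio of the highest to the lowest library, Control 2 to PIA+IL-27 1, was 9368, with 61554 reads against 6.

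The 2 Control libraries differed in Ttr by a factor of 748 (95% counting interval 601 to 943), the PIA libraries by 80.3 (67.5 to 96.3) and the PIA+IL-27 libraries by 104 (47.4 to 284). Counting intervals here and below treat reads as independent molecules and cover counting error only. The log2 difference between the Control libraries, 9.53 on the log2(normalized count + 1) scale, ranked first among the 3733 genes, and those within PIA and within PIA+IL-27, of -6.32 and 6.48, each had rank 5 by size.

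**Figure D1:**
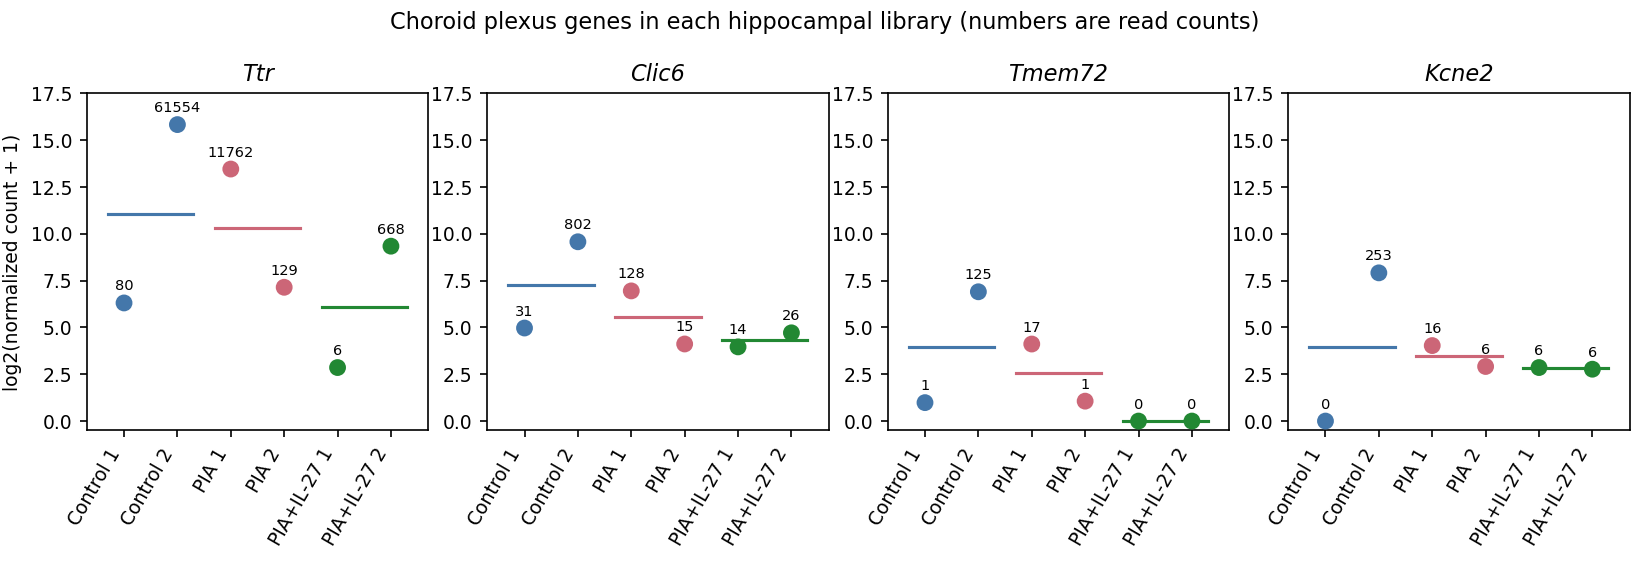
Level of each of the 4 genes in the 6 libraries as log2(normalized count + 1), with colours for the groups, a line at each group's mean of the 2 plotted values and the read count printed above each point. Control 2 is the highest and PIA 1 the second highest library for all 4 genes, while the other 4 libraries change order from gene to gene.

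For Clic6 the same libraries, Control 2 and PIA 1, were the highest. Control 1 had 30.4 and Control 2 had 764 normalized counts, PIA 1 had 123 and PIA 2 had 16.4, and PIA+IL-27 1 had 14.6 and PIA+IL-27 2 had 25.2. Control 2 was 25.1 times Control 1 (95% counting interval 17.6 to 37.3), and PIA 1 was 7.52 times PIA 2 (4.39 to 13.8). The remaining libraries had 14 to 31 reads. PIA+IL-27 2 was 1.73 times PIA+IL-27 1, with an interval of 0.870 to 3.58 that includes 1, so these neighbours did not differ beyond counting error.

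Tmem72 was nearly limited to the same pair of libraries. Control 1 had 0.979 and Control 2 had 119 normalized counts, PIA 1 had 16.3 and PIA 2 had 1.09, and the PIA+IL-27 libraries had no reads. These are 125 reads in Control 2, 17 in PIA 1 and 1 read each in Control 1 and PIA 2. The ratio of Control 2 to Control 1 was 122, with a counting interval of 21.4 to 4838 that reflects the single read. A count of 0 allows up to 3 reads per library, so Control 2 was at least 38.0-fold higher than PIA+IL-27 1.

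Kcne2 was high in Control 2 alone. Control 1 had 0 and Control 2 had 241 normalized counts, PIA 1 had 15.4 and PIA 2 had 6.55, and PIA+IL-27 1 had 6.26 and PIA+IL-27 2 had 5.83. Control 2, with 253 reads, was at least 82.0-fold higher than Control 1, against a floor of 3 reads. PIA 2 and both PIA+IL-27 libraries had 6 reads each, and PIA 1 had 16. The ratio of PIA 1 to PIA 2 was 2.35 with a counting interval of 0.873 to 7.33, which includes 1.

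Control 2 was the highest and PIA 1 the second highest library for all 4 genes. Of the 3733 genes of the table, 1.39% had this order of the first 2 libraries. Below them the order differed by gene. For Ttr it ran PIA+IL-27 2, PIA 2, Control 1 and PIA+IL-27 1, with 668, 129, 80 and 6 reads. The 95% Poisson intervals were 618 to 721, 108 to 153, 63.4 to 99.6 and 2.20 to 13.1 and did not overlap. For Clic6 Control 1 came next, and the intervals of the 4 lower libraries, 7.65 to 44.0 reads in all, overlapped between neighbours.

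The members did not keep 1 ratio to each other across libraries. In TPM, Ttr was 540 times Clic6 in Control 2 and 653 times in PIA 1, 175 times in PIA+IL-27 2, 61.2 times in PIA 2, 19 times in Control 1 and 3.13 times in PIA+IL-27 1. Among the reads of the 4 genes, Ttr held 98.1% in Control 2 (Wilson 95% interval 98.0 to 98.2) and 98.6% in PIA 1 (98.4 to 98.8). The share was 95.4% in PIA+IL-27 2 (93.6 to 96.7), 85.4% in PIA 2 (78.9 to 90.2), 71.4% in Control 1 (62.5 to 79.0) and 23.1% in PIA+IL-27 1 (11 to 42.1). Since Ttr makes up most of this sum, its share and the sum are not independent. Clic6 held 53.8% of the 26 reads in PIA+IL-27 1 and 1.28% of the 62734 reads in Control 2.

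**Figure D2:**
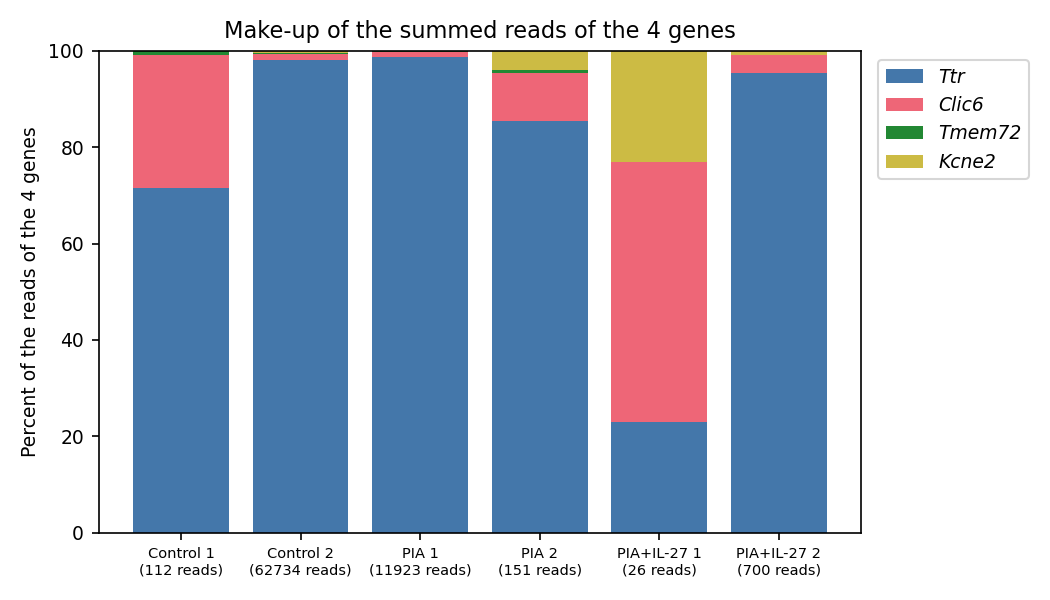
Share of each of the 4 genes in their summed reads, in percent, as 1 stacked bar per library with the number of reads under it. Ttr makes up 98.1% and 98.6% in Control 2 and PIA 1 and 23.1% in PIA+IL-27 1, where 26 reads were counted.

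Set against its own level in Control 2, Kcne2 was lower in PIA 1 than Ttr and Clic6 were, beyond counting error. PIA 1 had 19.3% of the Ttr level of Control 2 (95% counting interval 18.9 to 19.7), 16.1% of that of Clic6 (13.3 to 19.4) and 13.7% of that of Tmem72 (7.75 to 22.9). For Kcne2 it was 6.38% (3.59 to 10.6), an interval below those of Ttr and Clic6 that overlaps that of Tmem72. Slc4a5, the bicarbonate cotransporter of the choroid epithelium, had 3.91% (2.0 to 6.92). Folr1, the folate receptor that carries folate across this epithelium, had 16.8% (13.6 to 20.8), Otx2, a homeodomain transcription factor needed for the choroid plexus, 18.6% (12.3 to 27.4), and the tight junction gene Cldn2 19.3% (13.8 to 26.4). The water channel gene Aqp1 was higher, with 33.4% (28.8 to 38.6). These are values of 1 library against another, so the spread between animals is not in the intervals. The genes outside the 4 members were picked for a profile like theirs, and that likeness uses these same libraries. Nothing is therefore read from how near their values lie to those of the members.

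**Figure D3:**
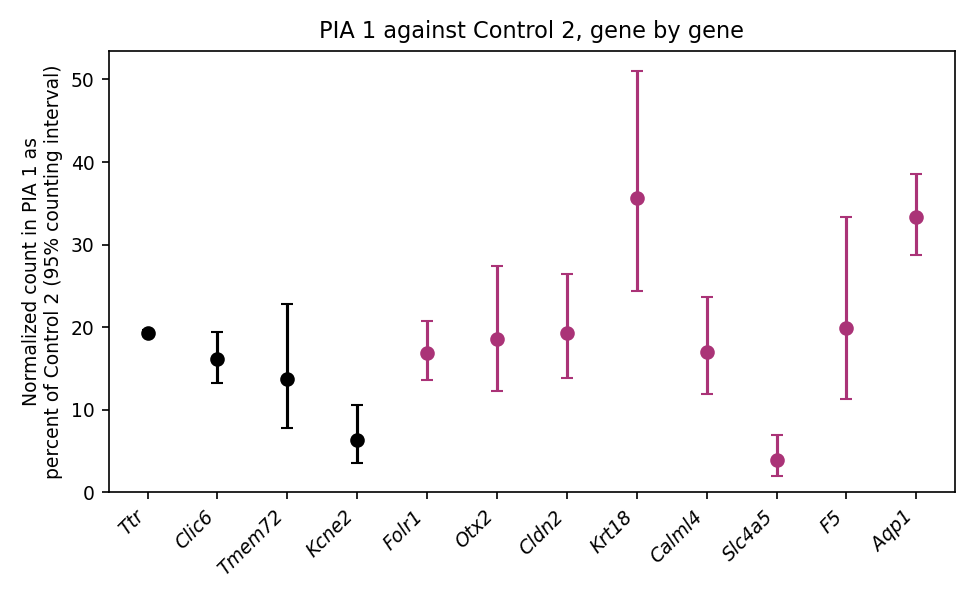
Normalized count in PIA 1 as a percentage of that in Control 2, with 95% counting intervals, for the 4 members (black) and the 8 choroid plexus genes most like them in profile (purple). Kcne2 and Slc4a5 lie at 6.38% and 3.91%, and Krt18 and Aqp1 at 35.6% and 33.4%.

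Between groups, the means of all 4 genes were lowest in PIA+IL-27 and highest in Control. All 4 passed the filter on low counts. In PIA against Control, fitted in edgeR, the log2 fold change was -2.36 ± 0.772 (SE, n = 2 per group) for Ttr, -2.51 ± 0.963 for Clic6, -2.75 ± 1.17 for Tmem72 and -3.44 ± 1.11 for Kcne2. The groups overlapped for every member, where 33.7% of all genes of the table did not overlap and 16.5% were lower without overlap. Each of these directions rests on Control 2. Without it the log2 fold change was 6.19 for Ttr and 1.20 for Clic6. Kcne2, then at 0 reads in Control, was at least 3.73-fold higher in PIA when that 0 is set to 3 reads. Tmem72, with 1 read left in Control and 18 in PIA, was higher in PIA by a factor of 9.39, with a counting interval of 1.48 to 391. The SE is the size of the log2 fold change divided by the square root of the F statistic, which rests on a spread pooled over genes. The common biological coefficient of variation was 0.597. For each of these genes the SE is smaller than the log2 difference between the Control libraries.

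In PIA+IL-27 against PIA the log2 fold change was -4.13 ± 0.835 for Ttr, -1.80 ± 0.965 for Clic6 and -0.85 ± 1.11 for Kcne2. Tmem72, with no reads in PIA+IL-27, was at least 2.88-fold lower, against a floor of 3 reads per library. Tmem72 and Kcne2 were lower in both PIA+IL-27 libraries than in both PIA libraries, where 16.5% of all genes were lower without overlap. For Kcne2 this rests on the library factors alone, since PIA 2 and both PIA+IL-27 libraries had 6 reads each. For Tmem72 it rests on 1 read in PIA 2 against 0. The rule had these libraries in view, and nothing is read from the number of members without overlap. Without PIA 1 the log2 fold change was 1.22 for Ttr, 0.28 for Clic6 and -0.11 for Kcne2. Tmem72, with 1 read in PIA 2, then gave no fold.

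In PIA+IL-27 against Control the log2 fold change was -6.48 ± 0.933 for Ttr, -4.31 ± 1.05 for Clic6 and -4.29 ± 1.17 for Kcne2, and Tmem72 was at least 19.9-fold lower. Clic6 and Tmem72 did not overlap, where 7.50% of all genes were lower without overlap. For Clic6 the nearest libraries, Control 1 and PIA+IL-27 2, had 31 and 26 reads. Their 95% Poisson intervals, 21.1 to 44.0 and 17.0 to 38.1, overlapped. For Tmem72 it was 1 read in Control 1 against 0. Without Control 2 the log2 fold change was 2.06 for Ttr and -0.60 for Clic6. Kcne2, at 0 reads in Control 1, was then at least 2.06-fold higher in PIA+IL-27, and Tmem72, with 1 read in Control 1, gave no fold. The comparisons share libraries, so a like direction in 2 of them is not independent. The authors' deposited table gives log2 fold changes of -2.37, -4.10 and -6.47 for Ttr in these comparisons, each with a Q value listed as 0. For Kcne2 the authors' deposited table gives -3.52, -0.83 and -4.35, with a Q value of 0.135 for PIA+IL-27 against PIA.

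Other genes of the choroid plexus were taken from lists written by role, with earlier results of these data known. Of 89 genes written, 46 were in the deposited table and 43 were tested. In edgeR 0 of the 43 passed an adjusted p of 0.05 in each of the 3 comparisons, where 0.218%, 0.435% and 0.311% of all tested genes passed in PIA against Control, PIA+IL-27 against PIA and PIA+IL-27 against Control. At an unadjusted p under 0.05 there were 12, 2 and 14 genes, all but 2 of them with a negative fold change, and DESeq2 and limma also called 0. Over all 3216 tested genes 202, 602 and 92 were under that p, in the same order of comparisons. In PIA against Control the median log2 fold change was -1.04, with 36 of 43 below 0, beside -0.68 and 72.2% below 0 over all tested genes. Without Control 2 the median was 0.73 (37 of 44 above 0), beside 0.29 over all. In PIA+IL-27 against PIA the median was -0.55, beside 1.17 over all. Without PIA 1 it was 0.32, beside 1.42 over all. In PIA+IL-27 against Control it was -1.26, beside 0.55 over all. Without Control 2 it was 0.20, beside 1.36 over all. In these last comparisons the list thus stayed below the median of all genes also without the library. With TMM factors over the listed genes, which move the median of all genes to 0.00, -0.04 and -0.02, the 3 medians of the list were -0.22, -1.75 and -1.77, with 25, 40 and 40 of 43 below 0, beside 36, 27 and 35 with the authors' factors.

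Control 2 held the highest level of 35 of the 46 other choroid plexus genes, against 21.3% of all genes of the table. It was at least 4 times Control 1, on the scale with 1 added, in 26 of the 46 (56.5%), against 15.6% of all genes. Control 2 and PIA 1 were the first and second library in 14 of the 46, against 1.39% of all genes. Many of these genes are also made by other cells of the brain. In the next paragraphs the normalized counts of a gene are given in pairs, first both Control libraries, then both PIA libraries, then both PIA+IL-27 libraries, each in the order of replicate 1 and replicate 2.

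Among the secreted proteins and carriers, 11 of 13 genes were highest in Control 2. Enpp2, which encodes autotaxin, the secreted enzyme that makes lysophosphatidic acid, had 299 and 3527, then 739 and 369, then 1139 and 556 normalized counts. Ecrg4, a precursor of secreted peptides made by this epithelium, had 49.0 and 436, then 74.9 and 33.8, then 33.4 and 76.7. Both were highest in Control 2, by a factor of 11.8 and 8.90 over Control 1, but Enpp2 was second highest in PIA+IL-27 1, where Ttr was lowest. Mia had 99.9 and 219, then 77.8 and 25.1, then 25.0 and 146. Stra6, the receptor for retinol-binding protein, went the other way, with 321 and 163, then 590 and 463, then 272 and 129.

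Among the channels, transporters and pumps, 9 of 13 genes were highest in Control 2. All 13 were higher in Control 2 than in Control 1, as were 75.1% of all genes of the table. Aqp1 had 58.8 and 714, then 238 and 148, then 60.5 and 27.2 normalized counts. Its log2 fold change in PIA+IL-27 against Control was -3.14 ± 0.973 (adjusted p = 0.215, edgeR). Car12, a carbonic anhydrase of the cell surface, had 214 and 931, then 261 and 33.8, then 51.1 and 275. Slc13a4, a sulfate transporter, had 255 and 499, then 560 and 567, then 449 and 83.5, so it was not highest in Control 2. Slc12a2, the sodium, potassium and chloride cotransporter, had 181 and 635, then 316 and 254, then 643 and 582.

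Among receptors, enzymes and surface proteins, 6 of 10 genes were highest in Control 2. Folr1 had 29.4 and 593, then 99.9 and 18.5, then 7.30 and 40.8 normalized counts. It had the smallest adjusted p of the lists, in PIA+IL-27 against Control (log2 fold change -3.68 ± 1.04, adjusted p = 0.0885, edgeR). Calml4, a calmodulin-like gene, had 17.6 and 237, then 40.4 and 6.55, then 10.4 and 42.7. The angiotensin-converting enzyme gene Ace differed less between libraries, with 489 and 784, then 686 and 678, then 367 and 276. Htr2c, a serotonin receptor that neurons also make, had 348 and 1027, then 417 and 130, then 173 and 618.

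Epithelial junction and keratin genes were highest in Control 2 in 5 of 6 cases. Cldn2 had 14.7 and 234, then 45.2 and 4.36, then 3.13 and 28.2 normalized counts. The keratin gene Krt18 had 10.8 and 113, then 40.4 and 13.1, then 7.30 and 20.4. The tight junction gene Cldn1 had 75.4 and 235, then 102 and 36.0, then 49.0 and 108. Cdh1, the epithelial cadherin, was the exception, with 60.7 and 16.2, then 145 and 204, then 173 and 2.91.

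All 4 transcription factor genes were highest in Control 2. Otx2 had 1.96 and 160, then 29.8 and 3.27, then 0 and 19.4 normalized counts. Its first 2 libraries and its lowest library, PIA+IL-27 1, were those of Ttr. Lmx1a, a factor of the roof plate from which the choroid plexus forms, had 24.5 and 49.5, then 17.3 and 5.46, then 7.30 and 24.3. Msx1 had 90.1 and 208, then 93.2 and 94.9, then 59.4 and 71.8. Gmnc, a regulator of multiciliated cells, had 35 reads in Control 2 and 2 to 9 in the other libraries, and did not pass the filter.

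**Figure D4:**
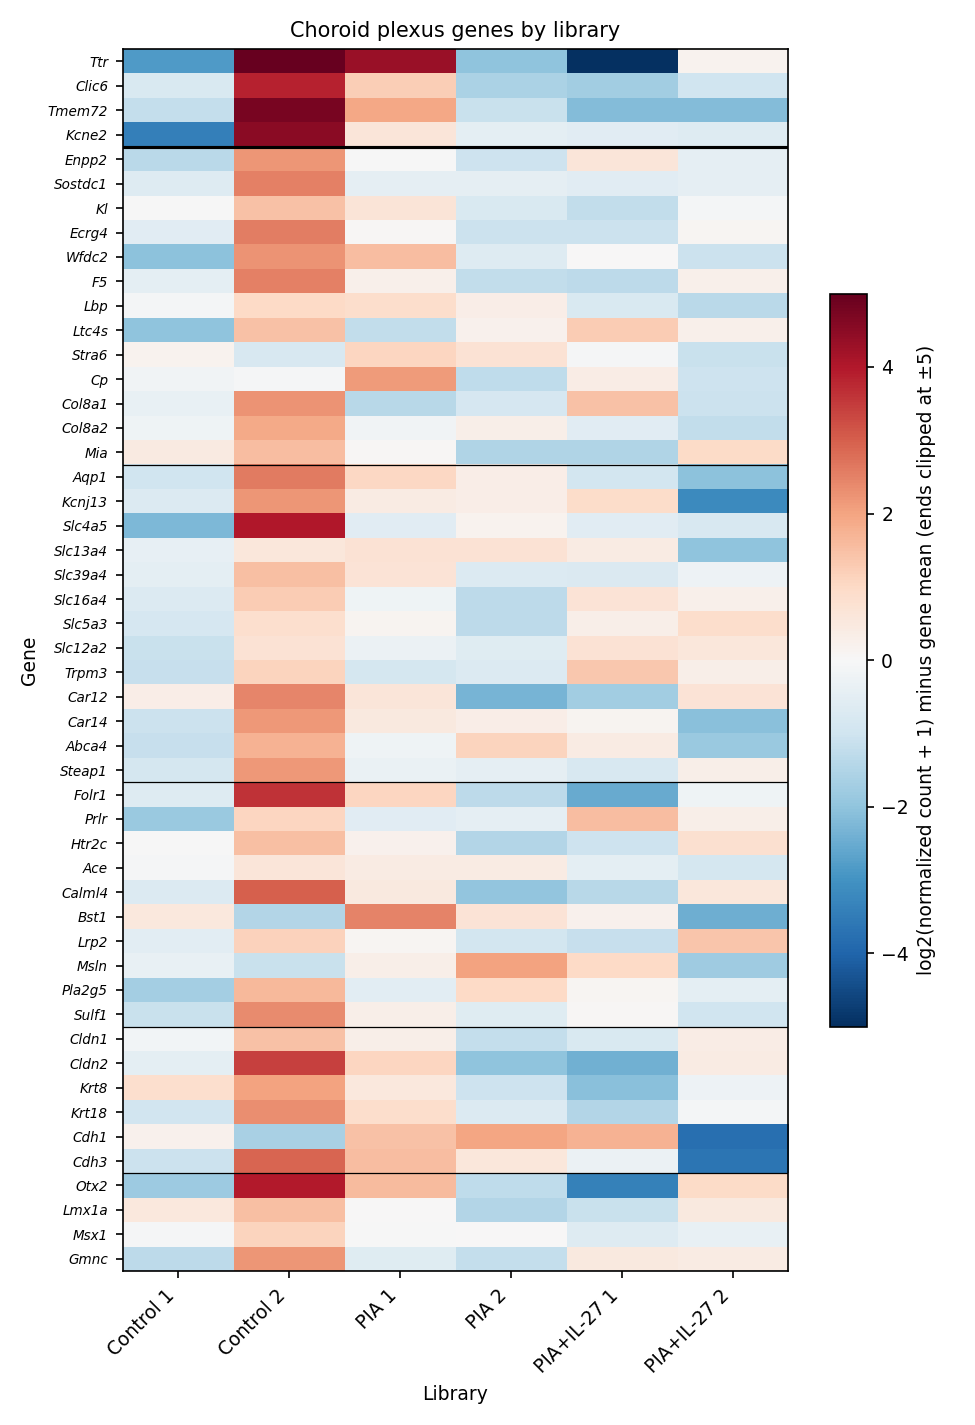
log2(normalized count + 1) minus the mean of each gene over the 6 libraries, for the 4 members (top block) and the 46 other choroid plexus genes in 5 blocks by role, with libraries as columns and colours clipped at 5 in either direction. Control 2 is the highest library for 4 of 4 members and 35 of 46 other genes, and PIA 1 is second to it for all members.

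Most of the genes most like the mean profile of the 4 members were on the choroid plexus lists. These lists hold 46 of the 3733 genes of the table. Members and lists were chosen with earlier results of these data known, so nothing is read from that share. Likeness was measured as the root-mean-square difference of centred log2(normalized count + 1) over the 6 libraries, among 2549 genes with at least 50 normalized counts in some library. The 10 closest were Folr1 (0.922), Otx2 (0.937), Cldn2 (1.16), Six3 (1.33), Krt18 (1.41), Calml4 (1.44), Slc4a5 (1.54), F5 (1.57), Aqp1 (1.57) and Scara5 (1.59), all in log2 units, and 8 of them were on the choroid plexus lists. The other two were Six3, which had 72.4 normalized counts in Control 2 and 1.04 to 5.77 elsewhere, and the scavenger receptor gene Scara5, which had 70.5 in Control 2 and 46.1 in PIA 1.

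Each member had its own nearest genes. Clic6 was closest to Folr1, with a difference of 0.488, and to Cldn2 (0.696) and Tmem72 (0.735). Kcne2 was closest to Slc4a5 (0.764), followed by Mfrp (1.27) and Six3 (1.29). Like Kcne2, Slc4a5 had its high value in Control 2 alone, with 2.94 and 295, then 11.5 and 19.6, then 11.5 and 9.71 normalized counts. Ttr had no close partner, its nearest being Otx2 at 2.07. Tmem72 was nearest to Clic6 (0.735), Folr1 (1.03) and Aqp1 (1.23).

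Genes of cells that lie beside the choroid plexus shared part of the order of libraries. Genes of ependyma, the ciliated lining of the ventricles, numbered 29 in the table. In Control 2 they were higher than in Control 1 for 28 of 29 (75.1% of all genes). The median log2 difference of these ependyma genes was 1.23, no larger than the shift of all genes, with 1.22. They were highest in Control 2 in 17 cases (58.6%, against 21.3% of all genes) and in PIA+IL-27 2 in 10, and summed to 393 and 333 TPM in these libraries, 151 in Control 1 and 57.6 to 82.5 in the other 3. Control 2 and PIA 1 were the first and second library for 0 of the 29. Only 1.39% of all genes had this order, so nothing is read from that 0. Foxj1, the regulator of motile cilia, had 522 and 481, then 200 and 194, then 91.8 and 518 normalized counts. It was the only 1 of the 29 that was lower in Control 2 than in Control 1. The axoneme gene Rsph1 had 85.2 and 524, then 77.8 and 97.1, then 32.3 and 215. Dynlrb2, a dynein light chain gene, had 25.5 and 69.5, then 15.4 and 8.73, then 5.21 and 92.2.

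In edgeR 0 of 28 tested ependyma genes passed in each comparison, and DESeq2 and limma also called 0. At an unadjusted p under 0.05 in edgeR there were 8, 4 and 0, beside 202, 602 and 92 of all 3216 tested genes. In PIA against Control all 28 had a negative log2 fold change (27 with TMM factors), with a median of -1.75, beside -0.68 over all tested genes. PIA and Control did not overlap in 24 of the 29, all lower in PIA, where 16.5% of all genes were lower without overlap. Without Control 2 the median was -1.16 with 24 of 28 below 0, beside 0.29 over all tested genes. The members, by contrast, overlapped between these groups and had values above 0 without Control 2, but the difference between the lists was not tested. In PIA+IL-27 against PIA all 28 ependyma genes were above 0 (21 with TMM factors), with a median of 1.39, beside 1.17 over all. Without PIA+IL-27 2 that median was -0.08 with 15 of 28 below 0, beside 1.18 over all. In PIA+IL-27 against Control the ependyma median was -0.41, beside 0.55 over all.

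Stromal genes of choroid plexus and meninges had another order of libraries. Of 14 such genes in the table, 7 were highest in PIA 1 and 5 in PIA 2, against 12.4% and 11.8% of all genes. All 14 were lowest in PIA+IL-27 2, where 508 of all 3733 genes were. Their summed level was 2897 and 3069 TPM in PIA, 1089 and 852 in Control, and 2205 and 226 in PIA+IL-27. Much of this sum was Ptgds alone, with a mean of 1376 TPM over the 6 libraries. Ptgds, the prostaglandin D synthase made by meningeal cells and choroid plexus, had 3525 and 2325, then 11431 and 13579, then 8312 and 499 normalized counts. The fibrillar collagen gene Col1a2 had 3725 and 3130, then 4128 and 2804, then 2059 and 1100, and Mgp, the matrix Gla protein gene, had 127 and 70.5, 282 and 216, and 260 and 32.0 in the same order. Control 2, the library with the most Ttr, was the highest for 0 of the 14, against 21.3% of all genes. In PIA against Control the median log2 fold change was 1.20, with 12 of 14 above 0, beside -0.68 over all tested genes. PIA was higher without overlap in 9 of the 14, against 17.2% of all genes. In PIA+IL-27 against PIA the median was -1.16, beside 1.17 over all, and 10 of 14 were lower without overlap (16.5% of all). In PIA+IL-27 against Control it was -0.38, beside 0.55. In edgeR 0 of the 14 passed in each comparison, and DESeq2 and limma also called 0. At an unadjusted p under 0.05 in edgeR there were 1, 3 and 0, beside 202, 602 and 92 of all 3216 tested genes.

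**Figure D5:**
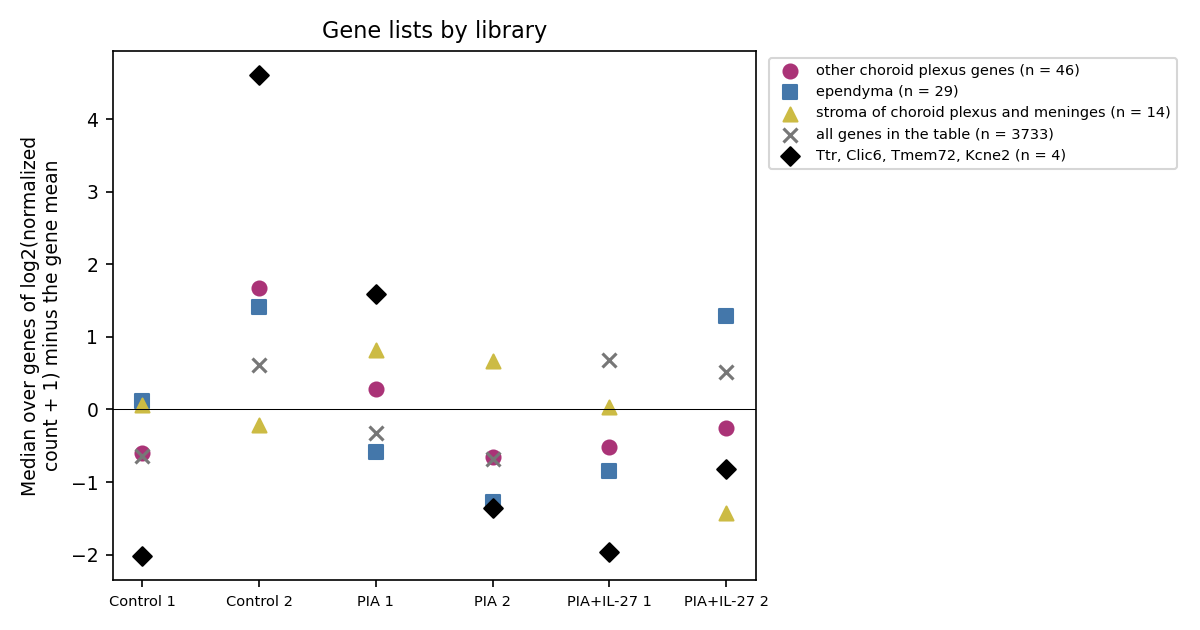
Median over genes of log2(normalized count + 1) minus the gene's mean over libraries, for the 4 members, the 46 other choroid plexus genes, 29 ependyma genes, 14 stromal genes and all 3733 genes of the table, by library. The members reach 4.62 in Control 2 and 1.59 in PIA 1, where the ependyma genes are at 1.41 and -0.58 and the stromal genes at -0.22 and 0.83.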

How the data were processed

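The deposited table has 1 row per gene. Its read numbers are expected counts of the authors, per the file headers, of which 11.3 to 13.3% are not whole. It also holds TPM and FPKM values of the authors, so named in the file headers and taken here as scaled to whole libraries. Its normalized counts are a deposited signal, equal to the rounded-up count over a factor that is constant within a library. This held for 100% of values within 1e-06, and the factors were 0.917 to 1.05. The authors' log2 fold changes and Q values (a p-value adjusted by the authors) per comparison were copied as deposited. The sources used here name no aligner, counter, build, strand setting or test, and the read shares of overlapping genes cannot be told apart. Each column was matched to its sample by the library name that the labels give. No per-sample column was left without a sample.

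Depth was estimated from counts, FPKM and GENCODE lengths of 104 genes with 1 transcript, a length of at least 2000 bases and an FPKM of at least 3. The quasi-likelihood test of edgeR 4.0.16 (R 4.3.3) was run on rounded counts, with all 6 libraries in 1 fit, library sizes from the authors' factors and filterByExpr, which kept 3216 genes. Adjustment was by Benjamini-Hochberg over these, with a threshold of 0.05. The prior degrees of freedom were infinite, so a gene's own spread had no weight. Data were simulated with the pooled coefficient of variation of 0.597 for every gene and with increases only. On these the test recovered 38 to 46% of genes with an 8-fold change and 74 to 76% of genes with a 16-fold change, over the 3 comparisons, with 3114 to 3128 genes fitted. Genes that spread more between libraries, as Ttr did, were not simulated. DESeq2 1.42.0 and limma 3.58.1 (log2(TPM + 1) and log2(TPM + 0.1)) were alternatives, beside median-of-ratios or TMM factors, a fit without the filter, a replicate block, only the libraries of a comparison, and each library left out.

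The members and all lists were chosen with earlier results of these data known. Genes were named by rule: the members, up to 4 genes per choroid list and 3 per other list by highest mean TPM, the 10 genes most like the members, and the 3 nearest each member. Of the lists for vessels and blood, dentate gyrus, cornu ammonis, neocortex and thalamus, 3, 5, 3, 6 and 4 genes were in the table, and 0 passed in any comparison. At an unadjusted p under 0.05 there were 0, 0, 1, 0 and 0 in PIA against Control, 0, 0, 1, 2 and 0 in PIA+IL-27 against PIA, and 0, 0, 0, 2 and 0 in PIA+IL-27 against Control. Of all 3216 tested genes 202, 602 and 92 were under that p in these comparisons.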

Additional observations from a re-analysis of the deposited data

How the results depend on the processing

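Counts of called choroid plexus genes stayed at 0 in each comparison under all alternatives run, including each library left out (0 to 0), and so did those of ependyma and stroma genes, except for 1 gene in PIA+IL-27 against PIA with only the libraries of that comparison. With replicate number as a block the log2 fold change of Ttr in PIA against Control was 3.56, and the counts of called list genes were 0. The numbers are not known to pair samples: the log2 differences of replicate 2 over replicate 1 correlated across genes at 0.15 between Control and PIA, 0.06 between Control and PIA+IL-27, and -0.26 between PIA and PIA+IL-27. Leaving out each library gave -7.70 to 6.19, -9.81 to 1.22 and -12.2 to 2.06 for Ttr in PIA against Control, PIA+IL-27 against PIA and PIA+IL-27 against Control, -4.59 to 1.20, -2.62 to 0.28 and -5.25 to -0.60 for Clic6, -5.63 to 3.01, -7.07 to -3.28 and -9.90 to -3.13 for Tmem72, and -4.43 to 6.47, -1.33 to -0.11 and -5.29 to 5.61 for Kcne2. A lone library is then assumed to vary like the other groups. The values of Tmem72 against PIA+IL-27, which has 0 reads, and the 6.47 and 5.61 of Kcne2, with Control left at 0 reads, depend on the prior count of the fit and are no folds. With a floor of 3 reads Kcne2 was at least 3.73-fold higher in PIA, and in PIA+IL-27 at least 2.06-fold, and with 1 read against 0 Tmem72 gave no fold. Values near 0 follow the unit: by limma on log2(TPM + 1) Tmem72 had -0.25 in PIA+IL-27 against PIA and -1.11 in PIA+IL-27 against Control. The log2 range over the 6 libraries, 6.91 for Tmem72 and 7.92 for Kcne2, was 2.18 and 4.42 in TPM, 1.57 and 3.62 in FPKM, and 10.2 and 11.2 with 0.1 added in place of 1. Of the 10 genes most like the members, 6 were shared when TPM was used. With 0 to 17 reads of Tmem72 and 0 to 16 of Kcne2 outside Control 2, differences among those libraries are limited by depth.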
